A study of Mus musculus with 6 samples.

Results

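The ADP/ATP carriers, the phosphate carrier, *Ucp2*, and the voltage-dependent anion channels (VDACs) were followed through single-cell RNA-Seq libraries of mouse islets. The 7 genes were *Slc25a4*, *Slc25a5*, *Slc25a3*, *Ucp2*, *Vdac1*, *Vdac2*, and *Vdac3*, which were chosen by symbol from the 32285 genes counted, and each symbol matched 1 gene. Islets came from C57/BL6 mice (C57BL/6J in the study's methods) aged 12 to 14 weeks, with 3 libraries of WT mice and 3 of β14-3-3ζ–KO mice (KO in short). KO mice carried Ins1-CreThor together with floxed alleles of *Ywhaz*, which encodes 14-3-3ζ, so recombination was driven where *Ins1* is expressed. WT controls were Cre-positive littermates, so the Cre allele was common to both genotypes. The study's figure legend counts as many mice per genotype as there are libraries here. Each library thus probably held the islets of its own mouse, although this was not stated outright. The p-values of WT against KO within a cell type, and of all permutation tests, measure the spread between these libraries. Islets had recovered overnight in culture, were dispersed, and were freed of dead cells before droplets were formed with the Chromium 3′ kit, in which each captured poly(A) RNA is counted once through a unique molecular identifier (UMI).

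These proteins carry the substrates of oxidative phosphorylation across the mitochondrial membranes. In the inner membrane, SLC25A4 (ANT1) and SLC25A5 (ANT2) exchange ADP for ATP, SLC25A3 brings in the phosphate that ATP synthase needs, and UCP2 is a carrier of the same SLC25 family that has long been studied in β cells for its influence on ATP yield and insulin secretion. In the outer membrane, VDAC1, VDAC2, and VDAC3 form the pores through which nucleotides and other metabolites reach the cytosol. In β cells, a rise of ATP over ADP closes K-ATP channels and leads to insulin release, so these transporters stand between the respiratory chain and exocytosis.

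The ADP/ATP carriers are close relatives, and the last 60 bases of both coding sequences, stop codon included, are shown to let the relation between the isoforms be seen. They are coding sequence and lie upstream of the transcript ends, near which a 3′ assay reads. Capitals mark the bases that differ between them, 11 of 60. Both were read 5′ to 3′ on the coding strand from build GRCm38 (called mm10 in the submitters' processing notes), where the *Slc25a4* stretch lies at chr8:46207463-46207522 on the minus strand and the *Slc25a5* stretch at chrX:36798485-36798544 on the plus strand.
Slc25a4: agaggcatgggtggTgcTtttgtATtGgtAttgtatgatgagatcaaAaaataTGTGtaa
Slc25a5: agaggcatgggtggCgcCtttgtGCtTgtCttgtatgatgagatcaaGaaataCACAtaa
Over the whole coding sequence, 695 of 897 bases were identical (77.5%), and the longest identical run was 20 bases. No run of 31 bases was shared between transcripts of any pair of the 7 genes. *Slc25a5* differed from the others in its copies elsewhere, since 48.5% of the 31-base runs in the last 500 bases of its transcript were also found in transcripts of other genes, 13 genes over the whole transcript, none of which was among the genes counted. The same share was 9.79% for *Vdac3*, 2.34% for *Ucp2*, 1.91% for *Slc25a3*, and 0 for *Slc25a4*, *Vdac1*, and *Vdac2*. For *Ucp2*, 74 of the 92 other genes over the whole transcript were among the genes counted. No copy of *Slc25a5* or *Vdac3* was, so reads of these copies may have been counted for them, or their own reads lost. Levels of *Slc25a5* and *Vdac3* are thus less certain than those of the other 5 genes.

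In GENCODE vM21 (GRCm38), *Slc25a4* (ENSMUSG00000031633) lies at chr8:46206797-46211284 on the minus strand and *Slc25a5* (ENSMUSG00000016319) at chrX:36795651-36798807 on the plus strand. *Slc25a3* (ENSMUSG00000061904) lies at chr10:91116574-91124059 on the minus strand and *Ucp2* (ENSMUSG00000033685) at chr7:100493337-100502020 on the plus strand. *Vdac1* (ENSMUSG00000020402) lies at chr11:52360860-52389397 and *Vdac2* (ENSMUSG00000021771) at chr14:21825238-21845879, both on the plus strand, and *Vdac3* (ENSMUSG00000008892) at chr8:22577075-22593813 on the minus strand. Because *Slc25a5* is X-linked, the sex-linked genes were read beside it. *Xist* was at or below 0.932 CPM (UMIs of a gene on the counts-per-million scale, relative to all UMIs of the summed cells) in every library and cell type, and the Y-linked *Ddx3y* was present in all 6 libraries.

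The libraries held 74083947 to 98294915 UMIs, and 25545 of 43445 barcodes were kept, 1854 to 7626 per library. Between 7 and 27 barcodes were shared by each pair of libraries. Clusters were named from marker genes, for example as β cell–like, shortened here to β cells, and 7 types had at least 10 cells in every library. They were β cells (5850 cells), α cells (807), δ cells (654), endothelial cells (1106), stellate cells (614), macrophages (864), and B cells (3095). Stellate cells joined a cluster of 337 cells, enriched for every stellate marker, with another of 277 cells. The latter was enriched for *Col1a2*, *Col3a1*, *Pdgfrb*, and *Rgs5* but not for *Col1a1*, *Pdgfra*, *Dcn*, or *Lum*. Levels of these clusters were not separated. All 10 β cell markers were highest in β cells, as were 6 of 8 α cell markers in α cells and every marker of the other 5 types in its own type. *Ins2* took 0.371% to 14.4% of the UMIs of the 6 other types, against 30.2% to 39.8% in β cells. Whether it came from RNA free in the suspension, from doublets, or from the cells themselves was not tested. KO library 2 stood apart within β cells, with 84.4% of them in the largest β cell cluster and 7.84% in the second, against 31.8% to 72.5% and 23.1% to 44.7% in the other 5 libraries. WT library 1 also differed, with the lowest share in the largest cluster (31.8%) and the highest in the second (44.7%). It had 23.5% in the smallest, hormone-rich cluster, against 4.39% to 11.4% in the other 5 libraries. B cells were thin in WT library 3 (26 cells) and KO library 1 (12 cells).

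The 7 genes were detected in every type. All types held *Ins2* RNA of untested origin, so detection alone does not show that a type expressed these genes. Levels are given as CPM of all UMIs of a type in a library. In β cells, hormone transcripts filled much of this total, so a second level was computed with 7 hormone genes (*Ins1*, *Ins2*, *Iapp*, *Gcg*, *Sst*, *Ppy*, and *Pyy*) left out of it, called the hormone-free level, and the order of the types is given on both. Between neighbours in the order, the 6 within-library differences of log2(CPM + 1) were compared with a 2-sided exact sign-flip permutation test, adjusted by Benjamini-Hochberg over 42 pairs. The smallest p that 6 libraries allow was reached by 14 pairs, with the same direction in 6 of 6 libraries. No neighbouring pair passed after adjustment (smallest adjusted p = 0.0938 in this permutation test), which does not show that neighbours were alike.

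*Slc25a4*, the carrier isoform best known from heart and muscle, had its highest levels in stellate cells, α cells, and δ cells. The lowest, median, and highest of the 6 libraries were 126, 166, and 196 CPM in β cells, 222, 242, and 305 CPM in stellate cells, and 81.1, 108, and 138 CPM in macrophages. Every stellate library was above every β cell library, whereas macrophages and β cells overlapped between libraries. The mean level was 257 ± 35.8 CPM in stellate cells (SD, n = 6), 238 ± 27.8 in α cells, 235 ± 11.9 in δ cells, 166 ± 24.3 in β cells, 149 ± 106 in B cells, 129 ± 15.0 in endothelial cells, and 108 ± 20.5 in macrophages. Only the steps from δ to β cells and from endothelial cells to macrophages went the same way in 6 of 6 libraries. The spread in B cells came from KO library 1, where 21 UMIs in 12 cells gave 354 CPM. Hormone-free levels brought β cells to 313 ± 40.6 CPM, level with α cells (337 ± 41.4) and δ cells (312 ± 17.3) and above stellate cells (272 ± 45.9).

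*Slc25a5*, the isoform known from dividing and non-muscle cells, was lowest in β cells and highest in stellate cells, 3.07-fold apart. The lowest, median, and highest libraries were 116, 151, and 175 CPM in β cells and 444, 454, and 479 CPM in stellate cells, with no overlap. Means were 459 ± 15.9 CPM in stellate cells, 386 ± 39.1 in endothelial cells, 323 ± 31.1 in macrophages, 293 ± 37.0 in B cells, 251 ± 22.5 in α cells, 174 ± 14.5 in δ cells, and 150 ± 19.3 in β cells (SD, n = 6). The means of the 3 endocrine types lay below those of the 4 other types, and the steps from stellate to endothelial, from α to δ, and from δ to β cells went the same way in 6 of 6 libraries. On hormone-free levels, δ cells (232 ± 19.8 CPM) took the lowest place and β cells (281 ± 29.0) the next, and α cells (356 ± 32.2) lay above B cells (324 ± 49.5).

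*Slc25a3*, the phosphate carrier, had the narrowest range of hormone-free means, which spanned 1.37-fold over the 7 types, from 347 ± 45.0 CPM in macrophages to 475 ± 18.3 CPM in δ cells, with 447 ± 41.5 in β cells. As CPM of all UMIs, it ran from 237 ± 25.3 in β cells through 306 ± 28.8 in macrophages, 308 ± 17.8 in α cells, 357 ± 10.3 in δ cells, 362 ± 33.4 in B cells, and 414 ± 22.9 in endothelial cells to 423 ± 32.9 in stellate cells (SD, n = 6). The β cell libraries (195, 241, and 268 CPM as lowest, median, and highest) lay below every library of α, δ, endothelial, stellate, and B cells. They overlapped those of macrophages, whose lowest library was at 265 CPM.

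*Ucp2* had the widest range, 5.75-fold, and stood highest in macrophages. Its lowest, median, and highest macrophage libraries were 554, 683, and 859 CPM, all above every library of every other type. In β cells the median was 128 CPM and the highest library 145 CPM, and in α cells the lowest, median, and highest were 261, 283, and 295 CPM. Means were 699 ± 142 CPM in macrophages, 282 ± 14.0 in α cells, 253 ± 28.1 in δ cells, 209 ± 58.3 in B cells, 158 ± 55.0 in endothelial cells, 127 ± 15.9 in β cells, and 122 ± 34.4 in stellate cells (SD, n = 6). Among endocrine cells, *Ucp2* was thus lower in β cells than in α and δ cells, without overlap, and the hormone-free means kept that order at 240 ± 26.6, 400 ± 23.7, and 337 ± 35.0 CPM. Of the neighbouring steps, only that from macrophages to α cells went the same way in 6 of 6 libraries. The other uncoupling proteins were all but missing, with 16 UMIs of *Ucp1* and 4 of *Ucp3* in all kept cells against 64870 of *Ucp2*.

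*Vdac1*, the pore usually named as the docking site of hexokinase, was high in β cells and low in the other endocrine types. Its lowest, median, and highest libraries were 118, 129, and 151 CPM in β cells, 71.0, 84.7, and 88.5 CPM in α cells, and 82.9, 89.0, and 103 CPM in δ cells, with every β cell library above both other types. Means were 133 ± 14.2 CPM in stellate cells, 132 ± 13.5 in β cells, 120 ± 9.10 in macrophages, 91.0 ± 6.81 in δ cells, 90.3 ± 5.29 in endothelial cells, 84.2 ± 19.5 in B cells, and 82.2 ± 6.72 in α cells (SD, n = 6). Stellate cells and β cells were within their spread on this scale, and on hormone-free levels β cells ranked first with 248 ± 19.3 CPM against 140 ± 16.9 in stellate cells.

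*Vdac2*, the isoform that binds the apoptosis effector BAK, ran the other way. Its lowest, median, and highest libraries were 56.8, 75.4, and 78.9 CPM in β cells and 222, 261, and 282 CPM in endothelial cells, without overlap. Means were 258 ± 20.8 CPM in endothelial cells, 242 ± 29.8 in macrophages, 203 ± 13.9 in stellate cells, 155 ± 29.8 in B cells, 122 ± 10.9 in δ cells, 98.8 ± 7.90 in α cells, and 72.1 ± 8.29 in β cells (SD, n = 6). β cells held the lowest place on hormone-free levels too, at 136 ± 12.0 CPM against 140 ± 10.8 in α cells, which is within the spread.

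*Vdac3*, whose product is the least studied of these pores, had means of 183 ± 10.1 CPM in stellate cells, 181 ± 13.9 in endothelial cells, 126 ± 8.35 in macrophages, 112 ± 12.5 in δ cells, 97.4 ± 10.9 in β cells, 85.2 ± 23.0 in B cells, and 81.8 ± 7.47 in α cells (SD, n = 6). The stellate and endothelial libraries (at least 166 CPM) lay above all libraries of the other types. Hormone-free means placed β cells behind stellate and endothelial cells, at 183 ± 11.7 CPM.

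**Figure D1:**
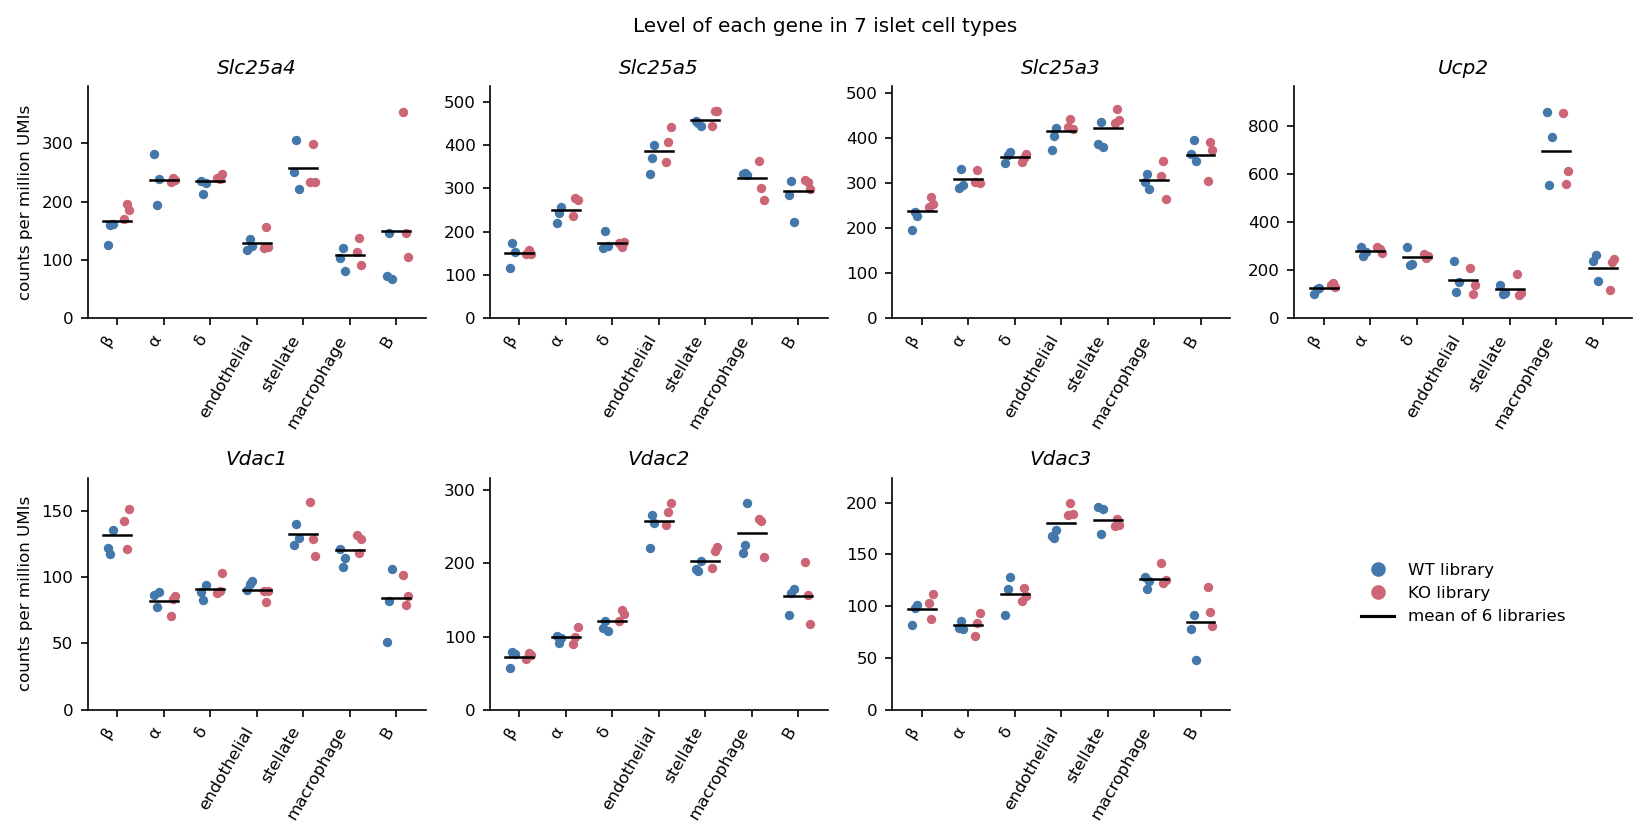
Level of each of the 7 genes in 7 islet cell types, in CPM of all UMIs on a linear axis that starts at 0. Points are libraries (blue WT, red KO) and lines are means of 6 libraries. *Ucp2* stands out in macrophages (554 to 859 CPM), *Vdac1* is higher in β cells than in α and δ cells, and *Vdac2* is lowest in β cells.

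Shares within a family do not depend on the library total, because each is a ratio of UMIs of the same cells. *Slc25a4* made up 52.6% of the ADP/ATP carrier UMIs of β cells (mean of 6 libraries), 48.6% in α cells, and 57.4% in δ cells, but 35.8% in stellate cells, 30.9% in B cells, 25.2% in endothelial cells, and a like share in macrophages (19.7% to 31.3% over the libraries). Endocrine cells thus held the isoforms in more equal parts, and the 4 other types held mostly *Slc25a5*. The share was lower than in β cells by 27.6 points in macrophages (SD 4.05, 6 of 6 libraries) and higher by 4.82 points in δ cells (SD 1.73, 6 of 6 libraries), each with an adjusted p of 0.0375 in the 2-sided exact sign-flip permutation test over 24 comparisons. In α cells it was lower by 4.01 points in 5 of 6 libraries and did not pass (adjusted p = 0.163, exact permutation test). B cells had 52.5% in the thin KO library 1 and 20.1% to 31.8% in the other 5 libraries.

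Among the VDACs, *Vdac1* had the largest mean share in β cells and in none of the 6 other types. Its share of the 3 genes' UMIs was 43.7% in β cells, 31.3% in α cells, 28.1% in δ cells, 26.0% in B cells, 25.5% in stellate cells, 24.7% in macrophages, and 17.1% in endothelial cells, and each of the 6 other types was lower than β cells in 6 of 6 libraries (adjusted p = 0.0375 each, exact permutation test). The 3 shares make up a whole in each library, so a lower share of one gene raises the others and their tests are not independent. *Vdac2* made the opposite pattern, with 24.0% in β cells against 37.5% to 49.4% in the other types, higher in 6 of 6 libraries in each (adjusted p = 0.0375 each, exact permutation test). The difference from β cells was 13.6 points in α cells (SD 3.35) and 25.4 points in macrophages (SD 2.64). *Vdac3* held 32.3% in β cells and moved least, with differences of 1.17 points lower in α cells, 2.09 points higher in δ cells, and 1.86 points higher in endothelial cells that did not pass. It was lower in macrophages by 6.38 points and in B cells by 5.99 points and higher in stellate cells by 3.04 points (adjusted p = 0.0375 each, exact permutation test). The same 20 of 24 shares passed after β cell RNA, read from *Ins2*, was subtracted from the other types.

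**Figure D2:**
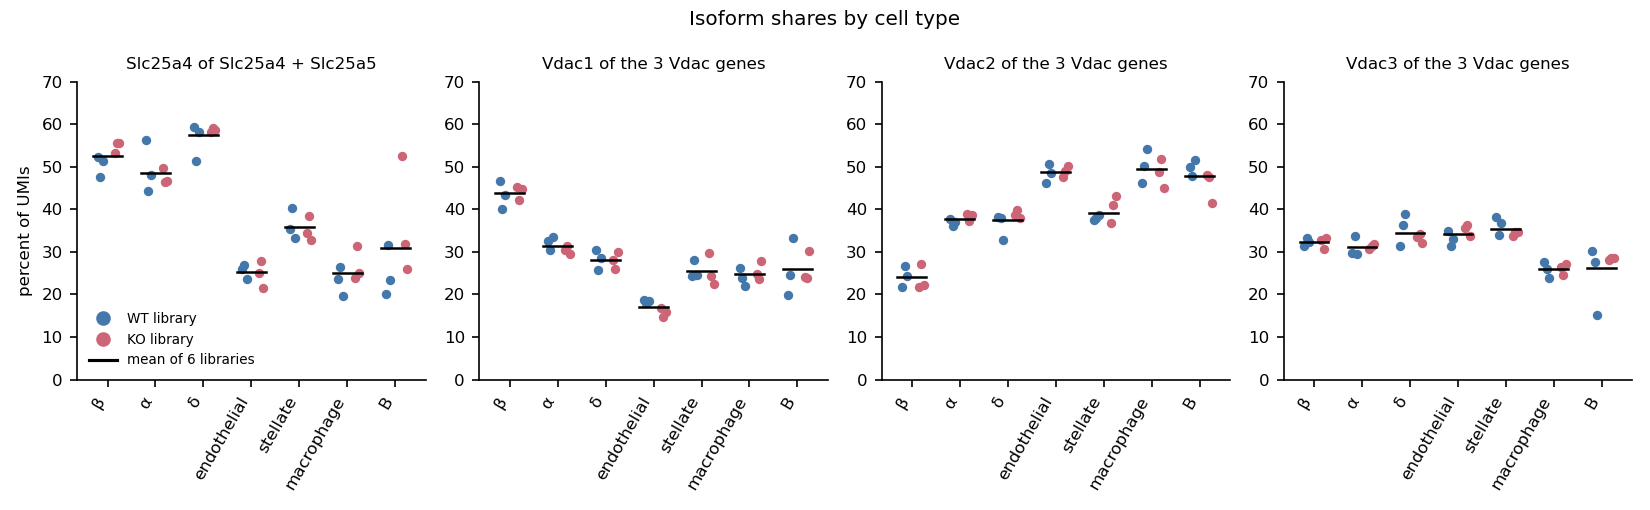
Percent of UMIs that each isoform takes within its family in 7 cell types, for *Slc25a4* of both ADP/ATP carriers and for each of the 3 VDAC genes. Points are libraries (blue WT, red KO) and lines are means of 6 libraries, on axes that start at 0. β cells have the highest *Vdac1* share (43.7%) and the lowest *Vdac2* share (24.0%).

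Each type was also tested against β cells across 12583 genes with limma-voom, each library as a random block, and TMM normalization, which scales totals so that most genes do not differ. The 7 genes were left out of the genes used for clustering. Of the 42 differences, 35 passed (21 higher and 14 lower than in β cells). Such differences were common among all genes, so the counts say little about these genes. The share of all genes that passed was 53.3% in α cells, where 4 of the 7 did, 53.5% in δ cells (5 of 7), 80.9% in endothelial cells (7 of 7), 80.5% in stellate cells (6 of 7), 74.6% in macrophages (7 of 7), and 79.2% in B cells (6 of 7). Some directions depended on the scale. The median difference of all genes was 0.03 to 0.05 (log2) with TMM, up to 0.65 in stellate cells with library totals, and down to -0.71 in B cells with totals of hormone-free counts. Of the 42 differences, 21 passed with the same sign on all 3 scales, and those are described first.

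*Ucp2* was 4.72-fold higher in macrophages than in β cells with TMM (log2 difference 2.24, SE 0.136, limma-voom adjusted p = 1.21e-18), and 2.42 and 1.69 on the log2 scale with totals and hormone-free totals. It was also higher in α cells (log2 difference 0.80, SE 0.138, adjusted p = 4.59e-06) and δ cells (0.44, SE 0.140, adjusted p = 0.00763) on all 3 scales. The δ cell difference no longer passed when endocrine cells were assigned by their dominant hormone (0.29, adjusted p = 0.0890 in limma-voom), without WT library 1 (0.30, adjusted p = 0.0712), or without KO library 3 (0.37, adjusted p = 0.0603). *Vdac1* was lower than in β cells by 1.03 in α cells, 1.09 in δ cells, 1.10 in endothelial cells, and 0.78 in B cells on the log2 scale, and lower on all 3 scales in these 4 types (limma-voom adjusted p at most 1.4e-09 with TMM). *Vdac2* was higher by 1.54 in macrophages, 1.29 in endothelial cells, 1.03 in B cells, 0.90 in stellate cells, and 0.19 in δ cells on the log2 scale, again on all 3 scales. The small δ cell difference (limma-voom adjusted p = 0.0355) no longer passed under 6 alternatives, among them the omission of WT library 1 or 3 or of KO library 1 or 3 (0.10 to 0.18). *Slc25a5* was higher in α cells (0.41), endothelial cells (0.81), macrophages (0.92), B cells (0.96), and stellate cells (1.02) on all 3 scales. *Slc25a4* was lower in endothelial cells (log2 difference -0.91, SE 0.126), macrophages (-0.79, SE 0.132), and B cells (-0.44, SE 0.143) on all 3 scales. After β cell RNA was subtracted, these TMM differences were -1.09, -1.13, and -0.72. The B cell difference did not pass in the exact sign-flip permutation test over the libraries (adjusted p = 0.311, lower in 5 of 6), and was -0.71 without WT library 2. *Vdac3* was lower in α cells (-0.60, SE 0.0793) on all 3 scales.

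Each remaining difference changed its direction or its side of the threshold between scales. *Vdac1* in macrophages, for example, was lower on all 3 scales (-0.32 with TMM, -0.86 with hormone-free totals) but did not pass with totals (-0.13). *Slc25a5* in δ cells was lower than in β cells with TMM (log2 difference -0.33, limma-voom adjusted p = 8.02e-04) and with hormone-free totals (-0.27), but higher with totals of all UMIs (0.24). *Slc25a3* was higher in macrophages with TMM (0.18) and with totals (0.38) and lower with hormone-free totals (-0.35), all past the test, but the TMM difference no longer passed under 8 alternatives, among them the omission of any 1 WT library (0.12 to 0.13, limma-voom adjusted p = 0.145 to 0.171). It lay 0.15 to 0.17 above the median of all genes on each scale. *Vdac3* in macrophages moved likewise between 0.18, 0.37, and -0.36, and the TMM difference no longer passed when any 1 of the 6 libraries was left out. *Ucp2* in endothelial cells was lower with TMM (-0.32, limma-voom adjusted p = 0.0468), which was lost under 5 alternatives, and at 0.24 with totals. *Ucp2* in stellate cells was lower with TMM (-0.72) and hormone-free totals (-0.95) and at -0.12, not past the test, with totals. With TMM, the differences that did not pass were *Slc25a4* in α, δ, and stellate cells (95% interval for stellate cells -0.21 to 0.27), *Slc25a3* in α and δ cells (-0.12 to 0.19 in δ cells), *Vdac2* in α cells (-0.05 to 0.27), and *Vdac3* in B cells (-0.33 to 0.04).

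**Figure D3:**
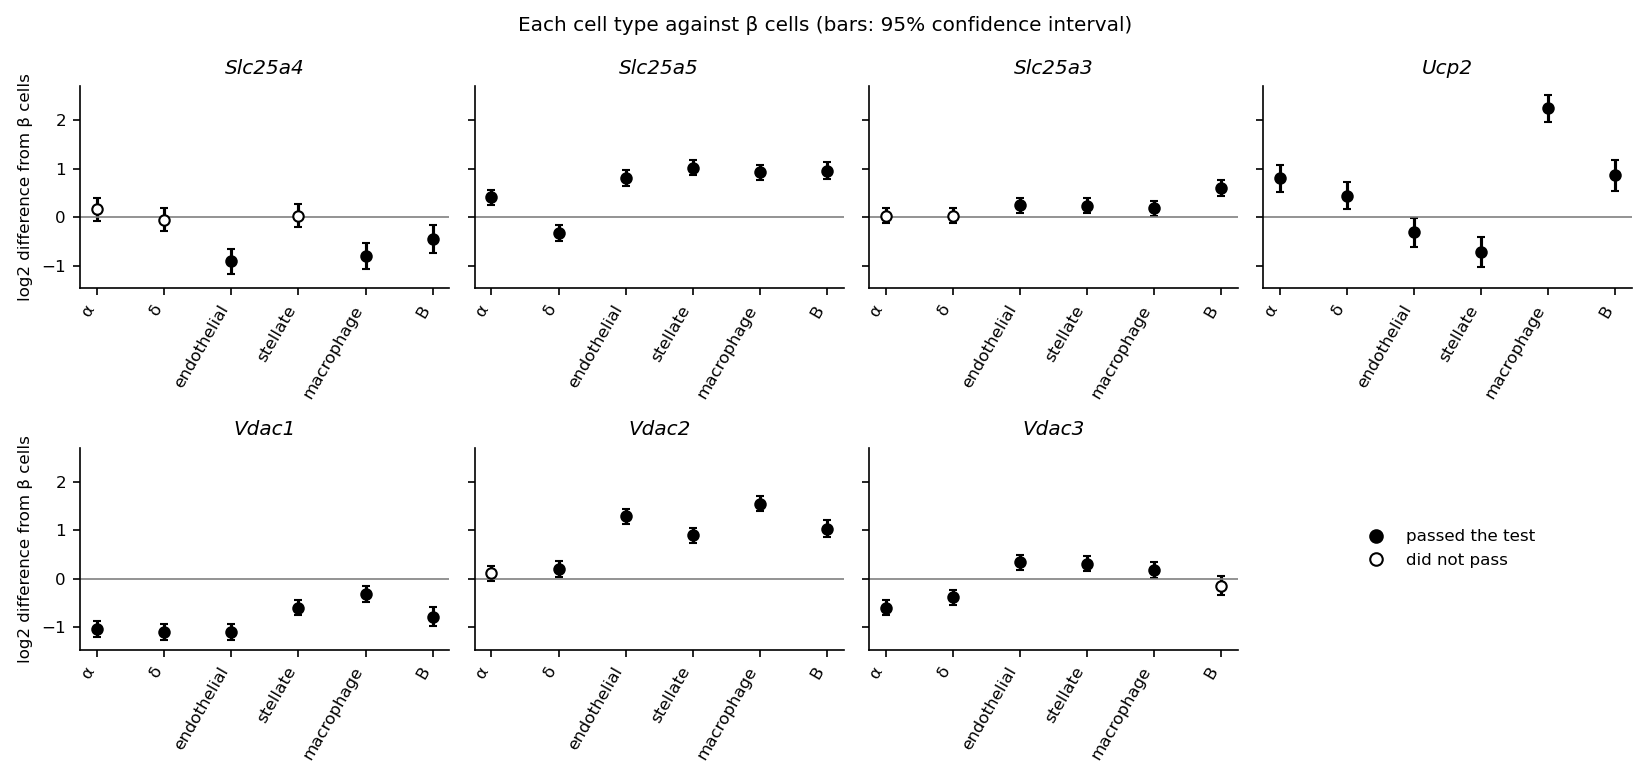
Log2 difference of each cell type from β cells for the 7 genes, from limma-voom with TMM normalization. Bars are 95% confidence intervals, filled points passed the test, and the line marks 0. *Ucp2* in macrophages (2.24) is the largest difference, and all 6 *Vdac1* points lie below 0.

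Across the 42 sums of a type in a library, the pattern of each gene was also compared with 11565 genes by Pearson's r of log2(CPM + 1). The sums share libraries and depth and may share free RNA, so r is a description and carries no test. The closest genes to *Slc25a4* were *Serping1* (0.872), *Arhgef17* (0.830), and *Lrig1* (0.826). Those closest to *Slc25a5* were *Ybx1* (0.966), *Cops6* (0.948), and *Myl12a* (0.942), and those closest to *Slc25a3* were *Snu13* (0.932), *Sumo2* (0.929), and *Hdac1* (0.904). *Ucp2* was closest to *Ppt1* (0.880), *Plaat3* (0.854), and *P2rx4* (0.850). *Vdac1* was closest to *Nfix* (0.826), *Scarb2* (0.803), and *Stbd1* (0.770). *Vdac2* was closest to *Tln1* (0.947), *Lamtor5* (0.942), and *Arpc3* (0.939), and *Vdac3* to *Tagln2* (0.930), *Praf2* (0.927), and *Rell1* (0.926). Within the 7 genes, *Slc25a5* and *Vdac2* were the closest pair (0.833), while *Slc25a4* and *Slc25a5* were unrelated on this measure (-0.07).

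WT and KO libraries were then compared within β cells, which asks how the deletion of 14-3-3ζ relates to these transcripts. *Ywhaz* was counted first, over all β cells. Its levels were 143, 161, and 155 TMM-scaled CPM in the WT libraries, numbered 1 to 3, and 17.9, 17.7, and 17.7 in the KO libraries, and its log2 fold change was -3.10 (SE 0.0753, adjusted p = 5.66e-07 in edgeR's quasi-likelihood test). The study left out KO β cells in which deletion of *Ywhaz* was incomplete, taken here as any *Ywhaz* UMI. This left 705, 675, and 607 KO cells, while all 804, 877, and 915 WT cells stayed. A UMI can be missing through low depth, so the selection may favour KO cells with few UMIs. In all, 9333 genes were tested. A gene passed at an FDR under 0.05 with a log2 fold change beyond 0.1 in either direction. None of the 7 genes passed, where 0.0107% of all genes did, which is *Ywhaz* alone. The call of *Ywhaz* in this fit follows from the selection, which left it at 0 in every KO library. With all KO cells kept, none of the 7 transporter genes passed either. Their log2 fold changes then ran from 0.03 for *Slc25a5* to 0.29 for *Slc25a4*, with 0.25 for *Ucp2* and 0.21 for *Slc25a3*. With the replicate number as a block, 12 genes passed, and 7 passed with DESeq2, none of the 7 transporter genes among them. Since sums are shares of a library's UMIs, more of one transcript and less of the others cannot be told apart.

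*Slc25a4* had 143, 153, and 153 TMM-scaled CPM in the WT libraries and 166, 210, and 170 in the KO libraries. Every KO library was above every WT library, with KO library 2 far above the rest. The log2 fold change was 0.28 (SE 0.0995, 95% interval 0.06 to 0.51), with an unadjusted p of 0.0195 and an adjusted p of 0.869 in edgeR's quasi-likelihood test, and of 0.184 with the replicate number as a block. *Ucp2* had 114, 115, and 118 in WT and 141, 154, and 124 in KO libraries. Its WT libraries lay close together and all KO libraries lay above them. The log2 fold change was 0.27 (SE 0.0869, 95% interval 0.07 to 0.47, unadjusted p = 0.0127, edgeR adjusted p = 0.869, and 0.195 with the block). *Slc25a4* and *Ucp2* were also on the study's list of changed genes, which came from these same libraries, so their direction is not independent evidence.

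*Slc25a3* was the other gene without overlap. It had 221, 226, and 214 TMM-scaled CPM in WT and 235, 286, and 236 in KO libraries, a log2 fold change of 0.19 (SE 0.0932, unadjusted p = 0.0675, edgeR adjusted p = 0.869). In the edgeR quasi-likelihood fit with the replicate number as a block, the unadjusted p was 0.0295 and the adjusted p = 0.333. KO libraries 1 and 3 were only slightly above the highest WT library. *Slc25a5* had 131, 168, and 145 in WT and 146, 170, and 142 in KO libraries. These overlapped, and the log2 fold change of 0.05 had a 95% interval of -0.20 to 0.29.

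The VDACs overlapped between genotypes. *Vdac1* had 138, 113, and 128 TMM-scaled CPM in WT and 133, 135, and 144 in KO libraries (log2 fold change 0.12, 95% interval -0.08 to 0.32). *Vdac2* had 64.4, 75.9, and 71.8 in WT and 67.0, 83.5, and 72.3 in KO libraries (0.07, -0.16 to 0.30). In both genotypes library 1 was lowest and library 2 highest. *Vdac3* had 93.0, 94.2, and 95.6 in WT and 96.3, 95.1, and 108 in KO libraries (0.08, -0.08 to 0.25). Only KO library 3 stood away from the other 5 libraries.

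Counted over the 7 genes, 3 had every KO library above every WT library (*Slc25a4*, *Slc25a3*, and *Ucp2*), as 5.78% of all genes did. Without the block, the unadjusted p was under 0.05 with a higher KO level for 2 of 7, against 2.61% of all genes. KO exceeded WT in all 3 same-numbered pairs for 5 of 7, against 18.1% of all genes. All 7 estimates were above 0, with a median of 0.12, beside a median of 0.00 over all genes. The genes were chosen with earlier results of these libraries known and are counted in the same libraries, so these counts are descriptive.

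**Figure D4:**
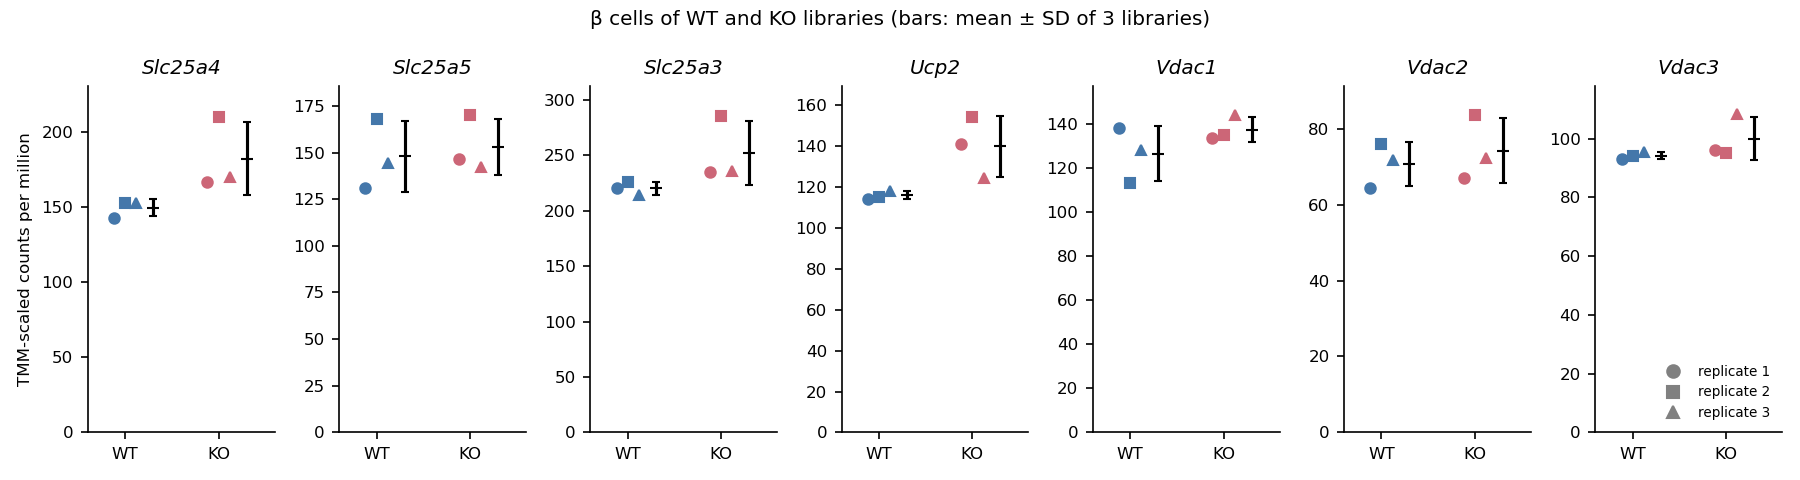
TMM-scaled CPM of the 7 genes in β cells of 3 WT and 3 KO libraries, without the KO cells that had a *Ywhaz* UMI. Points are libraries, shapes give the replicate number, bars are mean ± SD of 3 libraries, and each axis starts at 0. WT and KO points are separate for *Slc25a4*, *Slc25a3*, and *Ucp2*, and overlap for the others.

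The estimates of 5 genes were lower without KO library 2, which also differed in its β cell clusters. Without it, the log2 fold change was 0.17 for *Slc25a4*, 0.20 for *Ucp2*, 0.09 for *Slc25a3*, -0.03 for *Slc25a5*, and -0.02 for *Vdac2*. *Vdac1* and *Vdac3* were slightly higher, at 0.13 and 0.12, and the median of the 7 stayed at 0.12. With both libraries numbered 2 left out, it was 0.19 for *Slc25a4*, 0.19 for *Ucp2*, and 0.11 for *Slc25a3*. Without WT library 1, which differed in its clusters too, it was 0.25 for *Slc25a4*, 0.26 for *Ucp2*, 0.20 for *Slc25a3*, and -0.03 for *Slc25a5*. The comparison was then confined to the largest β cell cluster. *Ucp2* had 94.6, 113, and 116 TMM-scaled CPM in WT and 141, 157, and 123 in KO libraries, a log2 fold change of 0.38 (unadjusted p = 0.00688, edgeR adjusted p = 0.821), while *Slc25a4* was at 0.26 and *Slc25a3* at 0.21. *Ucp2* varied between β cell clusters, with means of 121 ± 21.1 and 168 ± 14.5 CPM (SD, n = 6) in the larger clusters and 34.1 ± 22.3 CPM in the smallest, in which hormones took 66.3% to 77.0% of UMIs. KO library 2 was highest there, at 78.8 CPM against 19.1 to 29.7 in the other 5 libraries, and the hormone-free means of the 3 clusters were 226, 275, and 116 CPM. Markers of other cell types overlapped between genotypes in the β cell sums, for each of 13 lists. The summed α cell markers, for example, ran from 1727 to 1794 CPM in WT and from 1770 to 2247 CPM in KO libraries, those of endothelial cells from 5.75 to 7.59 and from 5.86 to 8.87 CPM, and those of B cells from 7.75 to 24.3 and from 4.71 to 34.2 CPM. No tested marker passed, and their part in the results was not tested.

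**Figure D5:**
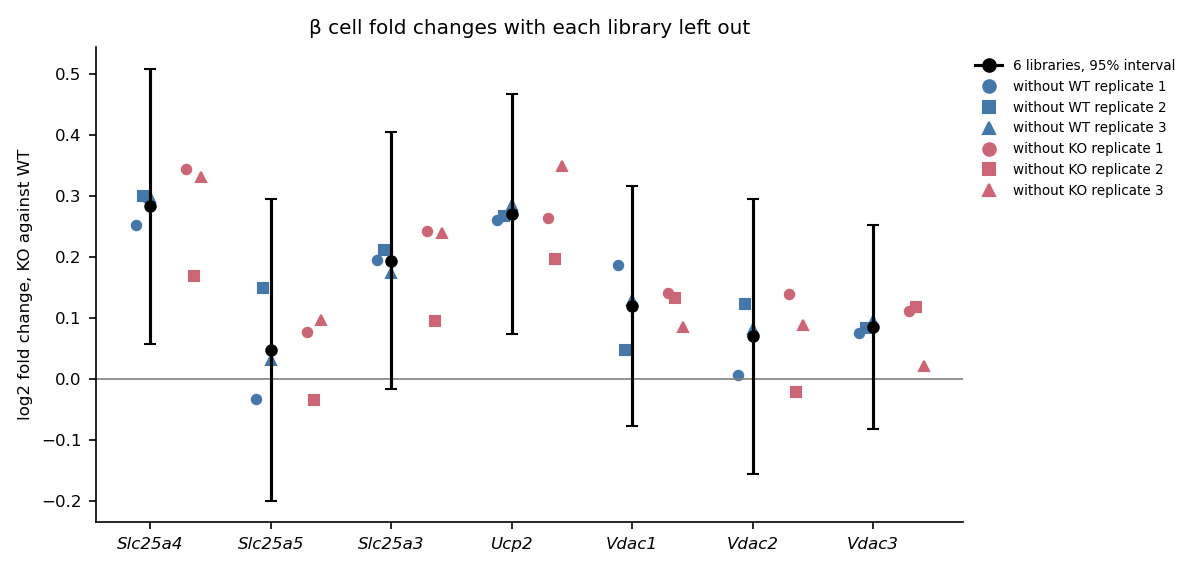
Log2 fold change of KO against WT in β cells for the 7 genes with all 6 libraries (black, 95% interval) and after 1 library was left out (blue, a WT library left out, and red, a KO library left out). Leaving out KO library 2 (red square) gives the lowest value of *Slc25a4* (0.17), *Slc25a3* (0.09), and *Ucp2* (0.20).

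The share of *Slc25a4* in the ADP/ATP carrier UMIs of β cells was 52.2%, 47.6%, and 51.4% in the WT libraries, against 53.2%, 55.3%, and 54.4% after deletion. The groups did not overlap and differed by 3.91 points. A 2-sided exact permutation test gave p = 0.1, the smallest that 3 against 3 libraries allow, and 0.4 after adjustment over the 4 shares. Without WT library 2, it was 2.53 points. The shares of *Vdac1*, *Vdac2*, and *Vdac3* differed by 0.772, -0.471, and -0.301 points (KO minus WT) and overlapped.

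Genes that work with these transporters were read in the same β cell comparison. Over all genes, 467 of 9333 had an unadjusted p under 0.05 in edgeR. Of all estimates, 4752 were above 0 and 4575 below. Of the 44 other genes of the SLC25 family, 27 were abundant enough to test and none passed in edgeR (2 at an unadjusted p under 0.05). Of these, 19 estimates were above 0 (median 0.05), with the largest for *Slc25a32*, the mitochondrial folate carrier (11.8, 11.8, and 11.8 TMM-scaled CPM in WT and 13.0, 15.0, and 13.6 in KO, log2 fold change 0.23), and *Slc25a38*, a glycine carrier (-0.21). All 18 genes of ATP synthase and its inhibitor were tested and none passed (1 at an unadjusted p under 0.05), with 16 above 0 and a median of 0.12, or 0.02 without KO library 2. The ATP synthase inhibitor *Atpif1* had 183, 186, and 179 in WT and 215, 281, and 206 in KO libraries (log2 fold change 0.35, unadjusted p = 0.0145, edgeR adjusted p = 0.869), and *Atp5g1*, a gene of the membrane-bound c subunit, had an estimate of 0.24. Of 23 partners at the outer membrane, such as hexokinases, BCL2 proteins, and subunits of the import pore, 19 were tested and none passed (0 at an unadjusted p under 0.05, 13 above 0, median 0.04). The largest estimates were -0.37 for *Itpr2*, an IP3 receptor, and 0.22 for *Tomm5*, of the import pore. None of the 13 mitochondrially encoded mRNAs passed (0 at an unadjusted p under 0.05, 9 above 0, median 0.08, or -0.01 without KO library 2), with the largest estimates for *mt-Atp8* (0.21) and *mt-Nd3* (-0.18). None of the 7 hormone genes passed either (2 at an unadjusted p under 0.05), and the block left all these lists without a call. *Ins1*, which carries the Cre, was lower in every KO library, at 99074, 112676, and 105478 TMM-scaled CPM in WT and 69826, 74564, and 61175 in KO libraries (log2 fold change -0.63, edgeR adjusted p = 0.869), and *Gcg* had an estimate of 0.78.

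In the 6 other types, none of the 42 comparisons of KO with WT passed, where 0.00177% of all genes tested in these types did. None had an unadjusted p under 0.05 in edgeR, and DESeq2 called none either. Over all genes, the share under 0.05 in edgeR was lowest in stellate cells (187 of 9992) and highest in B cells (457 of 6811). Estimates of the 42 ran from -0.11 to 0.64 on the log2 scale, and 34 were above 0. The median over all genes of a type ran from -0.0086 in stellate cells to 0.0018 in endothelial cells. The lowest p belonged to *Vdac3* in endothelial cells, with 168, 166, and 170 TMM-scaled CPM in WT and 188, 216, and 190 in KO libraries (log2 fold change 0.24, SE 0.115, unadjusted p = 0.0592, edgeR adjusted p = 0.971). The largest estimate, 0.64 for *Slc25a4* in B cells, rested on the thin libraries, with 73.5, 154, and 64.9 in WT and 337, 168, and 113 in KO. Libraries did not overlap in 6 of 42 comparisons, where 8.51% of all genes tested in these types did not. KO was above WT for *Slc25a4* in δ cells (229, 216, and 233 against 238, 254, and 249), for *Slc25a3* and *Vdac3* in endothelial cells, and for *Vdac1* and *Vdac3* in macrophages, and below WT for *Vdac1* in endothelial cells (90.3, 94.4, and 94.3 against 89.5, 88.0, and 89.9). *Ucp2* in macrophages, its highest site, had 845, 538, and 760 in WT and 857, 607, and 630 in KO libraries, which overlapped.

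Whether the genotype difference itself varied between β cells and another type was tested as an interaction of genotype and cell type. None of the 42 interaction terms passed (limma-voom, estimates from -0.32 to 0.17 on the log2 scale, smallest unadjusted p = 0.286), where 0.00873% of all terms did. The estimates for *Slc25a4* and *Ucp2* in β cells were therefore not shown to differ from those in any other type.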

How the data were processed

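The authors aligned and counted reads with Cell Ranger 6.0.2 (mm10 per the labels, with Seurat also listed) and deposited raw UMI counts per gene and barcode without normalization. Barcodes with fewer than 500 genes, more than 10% mitochondrially encoded UMIs, or doublet calls (1459 in all) were left out. Scrublet's automatic threshold was used in WT library 1 (13 cells), and in the other 5 libraries, where it marked too few, the top scores at a fixed rate were called. Cells were clustered in Scanpy 1.11.5 (Python 3.11.15, 2000 variable genes without the 7 genes, 30 components, 15 neighbours, Leiden resolution 1) and named from at least 3 markers. 10128 cells stayed unnamed. Counts were summed per library and type and tested with edgeR 4.0.16 (quasi-likelihood, TMM) or limma 3.58.1 (voom, library as random block) in R 4.3.3 with Benjamini-Hochberg adjustment, in β cells over genes detected in over 15% of the cells of WT or of KO. DESeq2 1.42.0 was an alternative. Same-numbered libraries deviated together (r = 0.533, 0.501, and 0.234 for replicates 1 to 3), so the numbers were taken to pair them. The tests were checked on simulated data with larger changes than the β cell estimates of the 7 genes. The check therefore does not show whether changes of that size could be called. Simulated cell types also differed in far fewer genes than the real ones. Gene identifiers were matched to GENCODE vM21 (32158 of 32285), which also gave the sequences. The named genes were the 7 genes, *Ywhaz*, *Ucp1*, *Ucp3*, hormone and sex-linked genes, the 3 genes of closest pattern, and the 2 largest estimates of each list. The genes, lists, and comparisons were chosen with earlier results of these data known. Hormone-free totals without TMM, sums of the largest β cell cluster, the omission of both libraries numbered 2, and the block with all KO cells kept were added after seeing the data.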

Additional observations from a re-analysis of the deposited data

Results flagged for a closer look

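Of 49 groups of 6 libraries (7 genes in 7 cell types), 2 held a library far from the others, where chance gives about 1 in 20. *Slc25a5* in B cells was lowest in WT library 3, at 223 CPM against 286 to 321 CPM in the other 5 libraries, from 23 UMIs in 26 cells. *Slc25a5* in δ cells was highest in WT library 2, at 202 CPM against 162 to 176 CPM in the other 5 libraries.

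The 7 genes were also counted in cells that no comparison used. In 6 unnamed clusters with few UMIs per cell (8169 cells), their summed level was 1090 CPM, and 1871 CPM with hormone genes left out of the total, against 977 and 1841 CPM in β cells.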

How the results depend on the processing

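None of the 7 genes passed between genotypes in β cells under any alternative run. The number of all genes that passed, 1, was 7 with DESeq2, 12 with no filter on low counts, 12 with the replicate number as a block (libraries paired by number), and 25 with the block and all KO cells kept. Of the alternative values for the 7 genes in β cells, 144 kept their direction and their side of the threshold and 3 turned direction. With 1 library left out, *Slc25a5* ran from -0.035 (without KO library 2, with -0.033 without WT library 1) to 0.15, and *Vdac2* from -0.022 (without KO library 2) to 0.14. Of those for the cell type differences, 506 kept direction and side, 37 no longer passed, 11 newly passed, and 27 turned direction. With library totals in place of TMM, the log2 difference from β cells was 0.52 for *Slc25a4*, 0.24 for *Slc25a5*, and 0.18 for *Vdac3* in δ cells, 0.24 for *Ucp2* in endothelial cells, and 0.012 for *Vdac1* in stellate cells. With hormone genes left out and totals, it was 0.015 for *Slc25a4* in δ cells and -0.18 in stellate cells, -0.36 for *Vdac3* in macrophages, and, for *Slc25a3*, -0.054 in B cells, -0.027 in α cells, -0.018 in endothelial cells, and -0.35 in macrophages. The others concern differences that had not passed. *Slc25a4* in stellate cells was at -0.012 with β cell RNA subtracted, -0.0086 with no doublet calls, and -0.031 at Leiden resolution 2. *Slc25a3* was at -0.055 with no doublet calls and -0.068 at resolution 2 in α cells, and at -0.028 at resolution 2 in δ cells. With 1 library left out, *Slc25a4* ran from -0.15 to 0.0070 in δ cells and from -0.022 to 0.12 in stellate cells, *Slc25a3* from -0.048 to 0.070 in α cells and from -0.072 to 0.084 in δ cells, and *Vdac2* from -0.0018 to 0.17 in α cells. Apart from the scale itself, the causes were not tested. Depth limits B cells most, with 5 to 36 UMIs per gene in WT library 3 and 6 to 21 in KO library 1.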

Other observations

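A cluster of 1468 cells led by *Ppy* and *Pyy* stayed unnamed at Leiden resolution 1. At resolution 2 a γ cell–like class was named, and its levels (mean ± SD of 6 libraries) were 204 ± 19.0 CPM for *Slc25a4*, 162 ± 12.8 for *Slc25a5*, 275 ± 19.3 for *Slc25a3*, 254 ± 15.8 for *Ucp2*, 91.4 ± 4.18 for *Vdac1*, 93.6 ± 9.11 for *Vdac2*, and 84.5 ± 4.30 for *Vdac3*.

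An unnamed cluster of 168 cells led by the cell cycle genes *Pclaf*, *Mki67*, and *Top2a* had 590 CPM of *Slc25a5* and 480 CPM of *Slc25a3*, above the mean of each of the 7 named types, and 354 CPM of *Ucp2*. An unnamed cluster of 151 cells led by *Jchain* and *Igha*, genes of antibody-secreting cells, had 39.4 CPM of *Vdac1* and 71.5 CPM of *Slc25a4*, below the mean of each of the 7 named types. Both are sums over all libraries without a replicate value.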
